A study of Mus musculus with 31 samples.

Results

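Glutamine is the amino acid that most cultured tumor cells take up in the largest amount, and the enzymes described here set what becomes of it. Glutaminases release glutamate from glutamine, glutamine synthetase runs the opposite way, and dehydrogenases and aminotransferases pass glutamate on to the citric acid cycle, aspartate and alanine. A separate branch turns glutamate into proline. Pancreatic cancer cells are known for a route in which cytosolic aspartate aminotransferase works on aspartate made from glutamine and feeds the supply of NADPH. Expression of 8 genes of this network, Gls2, Glul, Glud1, Got1, Got2, Gpt2, Aldh18a1 and Pycr1, was followed through RNA sequencing of Panc02, a murine pancreatic adenocarcinoma line. The genes were picked by symbol as the main enzymes of glutamine and glutamate use. They are 8 of the 55487 to 56980 genes listed in the 3 count tables of the series, and all 8 passed the filter on low counts in every table.

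The 31 samples fall into 3 experiments. In the conditioned media experiment, Panc02 spheroids in Matrigel were kept in control medium (Ctrl), in medium conditioned by untreated bone marrow-derived macrophages (M0-CM), or in medium of macrophages given IFNγ and LPS (M1-CM), with 3 samples each. By the study's methods, macrophage media were collected with supernatant of another cell line in them and mixed with complete medium. The control medium was matched to them in its share of serum. In the 2D and 3D experiment, wild-type (WT) and Cxcl5-/- cells were grown as monolayers (2D) or as spheroids (3D), with 3 samples each. In the rescue experiment, all in 3D, there were 2 WT samples, 2 Cxcl5-/- samples, 3 samples of Cxcl5-/- cells overexpressing Hif1a (Hif1aOE Cxcl5-/-) and 3 of Cxcl5-/- cells overexpressing Myc (MycOE Cxcl5-/-). Cxcl5 was disrupted with a lentiviral CRISPR guide. The Hif1a construct carries a mutated, stabilised form, and both genes were brought into the Cxcl5-/- line by retrovirus, so that Cxcl5-/-, Hif1aOE Cxcl5-/- and MycOE Cxcl5-/- samples share the deletion. Both kinds of vector were selected for with puromycin. Whether a line came from 1 clone is not given in the sources used here, nor do the labels say whether replicates were separate cultures. The study's methods speak of biological replicates for its experiments in general, and if the replicates here were not separate cultures, p-values measure only the spread between these samples, which may be technical. The culture medium contained L-glutamine. The labels of the rescue samples name cell lines that run on from sample to sample, and Panc02, the name in the study's methods, was followed.

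Total counts ranged from 41542533 to 78498230 per sample. Levels are given as CPM, the count as a share of a TMM-scaled library, and a gene was called changed at an adjusted p under 0.05 by edgeR's quasi-likelihood test. Cxcl5, the targeted chemokine gene, was read at 28.5, 24.5 and 28.0 CPM in 3D WT, while the spheroids labelled 3D Cxcl5-/- gave 65.5, 40.9 and 45.4 CPM. It was thus higher where the label names its deletion, by 0.91 (adjusted p = 0.000173, SE 0.14) on the log2 scale, and these samples are called by their label throughout. In 2D the difference was −0.47 (adjusted p = 0.0705), and in the rescue experiment Cxcl5 was lower in Cxcl5-/- than in WT by −0.78 (adjusted p = 0.00107). Hif1a and Myc, the genes overexpressed in the rescue lines, were lower in the spheroids labelled 3D Cxcl5-/- than in 3D WT, at −1.21 (adjusted p = 4.13e-07) and −1.75 (adjusted p = 8.94e-08) on the log2 scale. They were lower in rescue Cxcl5-/- than in rescue WT as well, at −1.18 (adjusted p = 1.04e-05) and −1.17 (adjusted p = 9.04e-05). A transcript can remain after a CRISPR edit, so its level does not show whether the protein was lost.

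Hif1a, a transcription factor of the hypoxic response, was at 144 and 133 CPM in rescue Cxcl5-/- and at 258, 296 and 243 CPM in Hif1aOE Cxcl5-/-. It was also at 241, 271 and 262 CPM in MycOE Cxcl5-/-, so both overexpressing lines carried more of it than rescue Cxcl5-/-. Neither line had a mean above the 314 CPM of rescue WT. Against WT, Hif1a was at −0.24 (adjusted p = 0.0999) in Hif1aOE Cxcl5-/- and −0.28 (adjusted p = 0.0488) in MycOE Cxcl5-/- on the log2 scale. The difference of MycOE Cxcl5-/- from Hif1aOE Cxcl5-/- was −0.04 (adjusted p = 0.826). Myc, a transcription factor of cell growth, was at 22.3 and 20.0 CPM in rescue Cxcl5-/-, at 23, 26.8 and 25.6 CPM in Hif1aOE Cxcl5-/- and at 548, 525 and 397 CPM in MycOE Cxcl5-/-. The rise of Myc was seen in MycOE Cxcl5-/-, and the change in Hif1aOE Cxcl5-/- was 0.25 (adjusted p = 0.175). Against rescue WT, with a mean of 47.7 CPM, Myc was at −0.92 (adjusted p = 0.000625) in Hif1aOE Cxcl5-/- and 3.36 (adjusted p = 1.05e-07) in MycOE Cxcl5-/-.

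Other cell states moved with the same groups. The summed level of 6 epithelial markers, of which Epcam and Cdh1 were at or under 3 counts in every library of most groups, was 839 to 1084 CPM in 3D WT and 190.4 to 222 CPM in the spheroids labelled 3D Cxcl5-/-. For 5 fibroblast markers, all detected in both groups, the sums were 72.9 to 75.8 and 204 to 235 CPM. In the rescue experiment the fibroblast sums were 22.4 to 25.8 CPM in WT, 269.7 to 271 CPM in Cxcl5-/-, 29.2 to 45.2 CPM in Hif1aOE Cxcl5-/- and 148 to 170.3 CPM in MycOE Cxcl5-/-. The epithelial sums were 823 to 865, 258 to 272, 687 to 819.5 and 244 to 287 CPM in the same order. Lists for macrophages, endothelium and acinar cells summed to at most 25.7, 3.17 and 2.81 CPM in any library. The 2 rescue WT libraries stood apart, with 27353 to 27506 genes at 10 counts or more against 19732 to 21560 in the other rescue groups. The part of these differences in the results was not tested. In bulk RNA, fewer cells of a kind and less RNA per cell cannot be told apart.

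The sequence upstream of 4 of the genes is shown, namely the 3 whose shown stretch held a searched motif and Glul, the member that moved the opposite way. RefSeq promoter windows (GRCm38.p6, 300 bases around the start) were matched for 7 of the 8 members and not for Gls2. They were searched on both strands for TTGCATCA, the form of the C/EBP-ATF response element found in amino acid response genes, for TGATGNAA, a looser form that includes it, for CACGTG, the E-box bound by Myc with Max, and for ACGTG, the core of the hypoxia response element, which is contained in CACGTG. Bases −150 to −31 from the start are printed 5′ to 3′ on the strand of the gene, with a match in capitals. They lie at chr19:43524636-43524755 (minus strand) for Got1, chr11:120643779-120643898 (minus strand) for Pycr1, chr19:40588494-40588613 (minus strand) for Aldh18a1 and chr1:153899779-153899898 (plus strand) for Glul.
Got1: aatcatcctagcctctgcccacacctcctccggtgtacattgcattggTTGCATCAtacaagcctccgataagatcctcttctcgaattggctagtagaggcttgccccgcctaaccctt
Pycr1: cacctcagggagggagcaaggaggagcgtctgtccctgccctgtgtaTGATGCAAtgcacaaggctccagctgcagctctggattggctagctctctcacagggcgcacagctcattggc
Aldh18a1: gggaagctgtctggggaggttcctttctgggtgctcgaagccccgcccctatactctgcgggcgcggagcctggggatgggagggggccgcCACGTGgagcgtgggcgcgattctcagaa
Glul: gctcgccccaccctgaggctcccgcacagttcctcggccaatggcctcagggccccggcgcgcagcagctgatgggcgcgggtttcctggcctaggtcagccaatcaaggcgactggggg
The window of Got1 held TTGCATCA from position −102, and that of Pycr1 held its reverse complement, TGATGCAA, from −103. Aldh18a1 held CACGTG from −59. The windows of Glul, Gpt2, Got2 and Glud1 held none of these letters. Of all 32851 promoter windows, 0.89% held TTGCATCA, 3.97% TGATGNAA, 7.15% CACGTG and 19.6% ACGTG. These matches describe letters in a window and do not show that a factor binds.

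Per kilobase of merged exons, Aldh18a1 was the most abundant of the 8 transcripts in 3D WT, at 64.7 ± 7.67 CPM per kb (SD, n = 3). Got1 followed at 42.1 ± 5.61, Glud1 at 34.1 ± 1.27, Got2 at 25.4 ± 3.97, Gpt2 at 13.5 ± 1.40 and Glul at 9.44 ± 0.126 CPM per kb. Gls2 and Pycr1 were low, at 2.15 ± 0.359 and 1.00 ± 0.230 CPM per kb. In the spheroids labelled 3D Cxcl5-/- the order was different: Aldh18a1 was at 32.7 ± 0.668 CPM per kb and Glud1 at 29.4 ± 0.363. Glul followed at 21.2 ± 2.05 CPM per kb, with Got1 at 18.9 ± 1.76 and Got2 at 18.3 ± 0.617, and Got1 was not separated by its spread from either of these neighbours. The rest were at 7.37 ± 0.0953 for Gpt2, 0.985 ± 0.0974 for Gls2 and 0.372 ± 0.0654 for Pycr1. In rescue WT the order ran from Aldh18a1 at 49.6 ± 1.72 CPM per kb (SD, n = 2) through Got1, Glud1 and Got2 to Glul at 10.7 ± 1.24 and Gpt2 at 7.97 ± 0.551, and Gls2 and Pycr1 could not be separated by their spread, at 1.81 ± 0.0970 and 1.79 ± 0.243. In rescue Cxcl5-/-, Glud1 led at 30.9 ± 0.859 CPM per kb, with Glul next at 28.0 ± 0.434 and Aldh18a1 at 20.5 ± 1.87, the last not separated from Got2 at 19.2 ± 1.15.

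Conditioned media moved none of the 8 genes past the threshold. The comparison asks what medium from M0 or M1 macrophages does to the spheroids. Against Ctrl it also takes in the added supernatant of another cell line, which cannot be told apart there from macrophage products. Of 19207 genes tested, 0.0156% were called for M1-CM against Ctrl and 0.0156% against M0-CM, and Cxcl5 was among them, at 78.1, 117 and 107 CPM in Ctrl and 663, 719 and 662 CPM with M1-CM. For M0-CM against Ctrl edgeR called 0 genes, 412 higher and 157 lower had an unadjusted p under 0.05, and DESeq2 called 17. Gls2, the liver-type glutaminase of mitochondria, was at 6.59, 5.60 and 6.49 CPM in Ctrl, 10.7, 9.16 and 11.4 CPM with M0-CM and 8.42, 6.45 and 10.5 CPM with M1-CM. All 3 M0-CM libraries lay above all 3 Ctrl libraries, with a log2 fold change of 0.74 (SE 0.22), unadjusted p = 0.00662 and adjusted p = 1. It was the 1 member with an unadjusted p under 0.05 in that comparison, against 0 members in each of the M1-CM comparisons, and DESeq2 called 0 members in all 3.
The ranges of the other members over the 9 samples were as follows. Glul, glutamine synthetase, ran from 14.4 to 22.8 CPM. Glud1, the mitochondrial glutamate dehydrogenase, ran from 113 to 147 CPM, and Aldh18a1 from 113 to 149.5 CPM. Got1 and Got2, the cytosolic and mitochondrial aspartate aminotransferases, ran from 42.0 to 56.1 and 101 to 127 CPM. Some of these groups did not overlap. All 3 M1-CM libraries lay below all 3 Ctrl libraries for Glud1, and below all 3 M0-CM libraries for Glud1 and Got1. For Glul they lay above all 3 M0-CM libraries. All 3 M0-CM libraries lay above all others for Aldh18a1 and above all 3 Ctrl libraries for Gpt2. No adjusted p was under 0.965. The share of all genes without overlap was not computed, so these separations are not read as a result. Gpt2 ran from 36.0 to 58.3 CPM. Pycr1 ran from 1.07 to 4.04 CPM, with an SE of 0.49 on the log2 scale in each comparison.

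**Figure D1:**
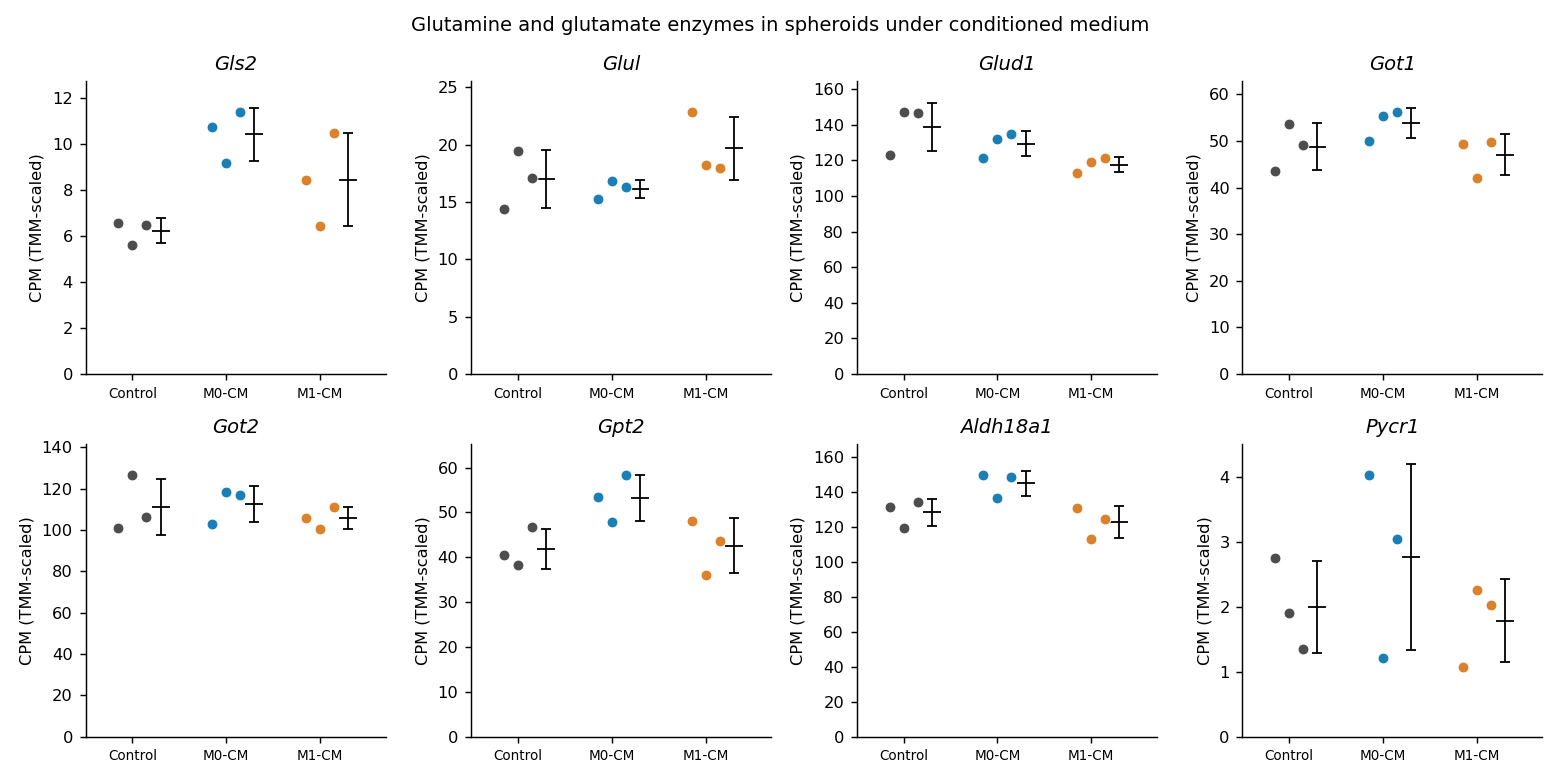
Level of each of the 8 enzymes in CPM (vertical axis) in Ctrl, M0-CM and M1-CM spheroids, with 1 point per library (n = 3 per group) and the mean ± SD. No gene passes the test, and for Gls2 the 3 M0-CM points, 9.16 to 11.4 CPM, sit above the 3 Ctrl points, 5.60 to 6.59 CPM.

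In WT cells, 5 of the 8 genes were higher in 3D than in 2D and 0 were lower. Across all 21367 genes tested, 22.2% were called higher and 22.0% lower. Gpt2, the mitochondrial alanine aminotransferase, was at 42.2, 38.0 and 43.4 CPM in 2D WT and 84.8, 69.2 and 75.3 CPM in 3D WT, a rise of 0.89 (adjusted p = 1.19e-06, SE 0.08) on the log2 scale. Every 3D library lay above every 2D library. Pycr1, the reductase that makes proline from pyrroline-5-carboxylate (P5C), was low in 2D WT at 1.66, 1.28 and 1.53 CPM and was 4.36, 4.55 and 2.90 CPM in 3D WT, with a log2 fold change of 1.40 (adjusted p = 0.00562, SE 0.36). Aldh18a1, the P5C synthase that draws on glutamate, rose by 0.36 (adjusted p = 0.00468, SE 0.09). These 2 genes of proline synthesis from glutamate therefore stood higher in 3D, Pycr1 by more on the log2 scale. Of 4 other genes of proline turnover tested, 1 was called higher and 2 lower.
Gls2 rose from 4.85, 4.66 and 5.58 to 8.86, 6.42 and 7.18 CPM, a log2 fold change of 0.57 (adjusted p = 0.00658, SE 0.15). Got1 rose from 81.6, 71.1 and 86.0 to 122, 93.1 and 106 CPM, by 0.43 (adjusted p = 0.0063, SE 0.11). The groups did not overlap for either gene. Glul, at 29.9, 26.1 and 30.7 CPM in 2D WT, Got2, at 131, 124 and 137 CPM, and Glud1, at 176, 161 and 152 CPM, did not pass the test, with log2 fold changes of 0.12, −0.09 and −0.18 and adjusted p = 0.317, 0.518 and 0.0652. The median log2 fold change of the 8 genes was 0.39, beside 0.00 over all genes. With library totals in place of TMM, the share of higher calls over all genes went from 50.2% to 34.7%, and Gls2, Got1 and Aldh18a1 no longer passed (adjusted p = 0.0948, 0.098 and 0.258) while Glud1 was called lower at −0.40 (adjusted p = 0.00228) and Got2 at −0.32 (adjusted p = 0.0177).

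**Figure D2:**
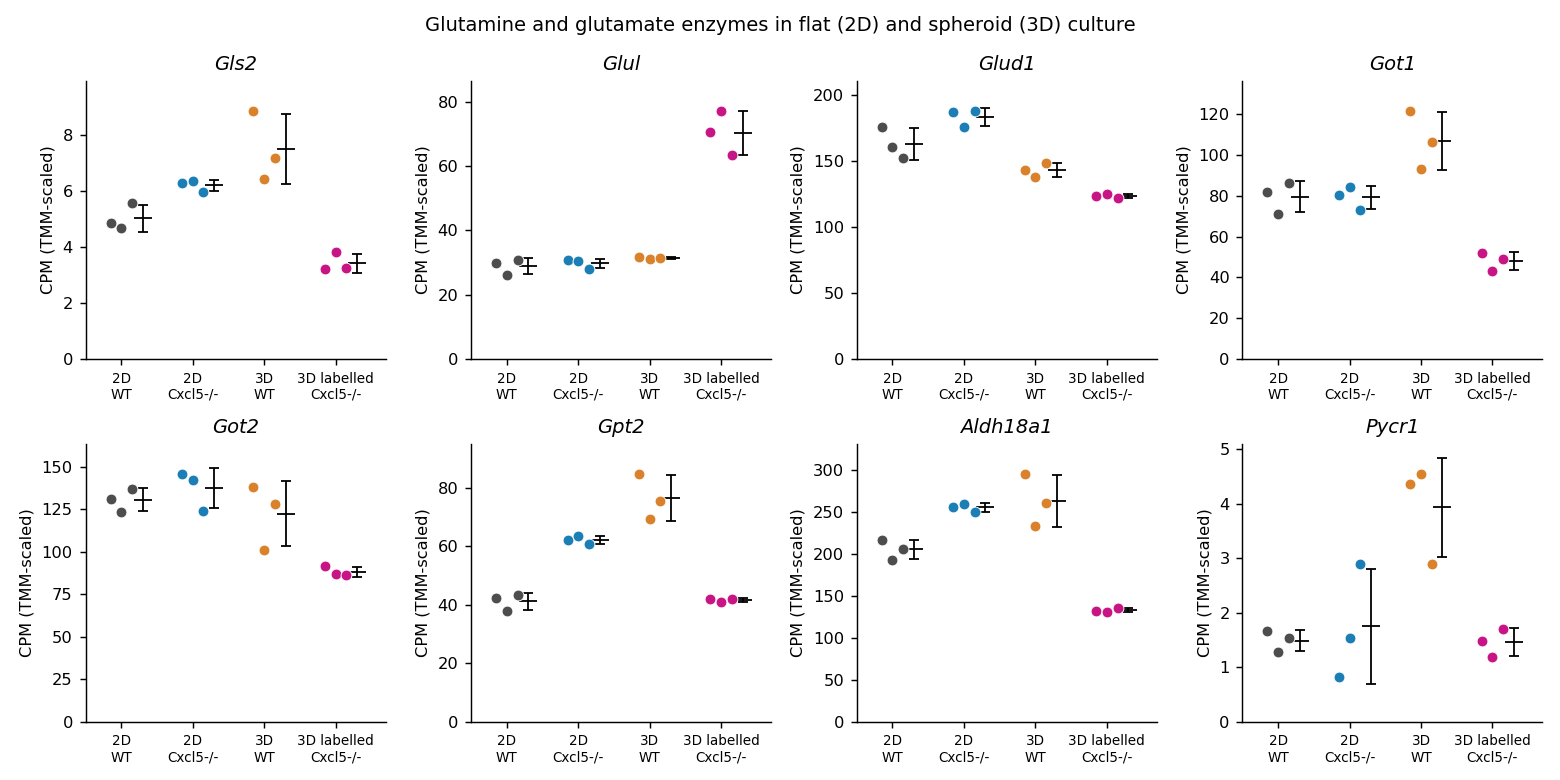
Level of each of the 8 enzymes in CPM (vertical axis) by genotype and culture, with 1 point per library (n = 3 per group) and the mean ± SD. Glul stands highest in the spheroids labelled 3D Cxcl5-/-, at 63.5 to 77.1 CPM against 26.1 to 31.8 CPM in the other 9 libraries, and Got1, Aldh18a1 and Gls2 stand lowest there.

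In 2D, the Cxcl5-/- label was accompanied by little change. Of the 8 genes 2 were called higher, beside 3.86% of all genes, and 0 lower. Gpt2 was at 62.2, 63.4 and 60.7 CPM in 2D Cxcl5-/- against 42.2, 38.0 and 43.4 CPM in 2D WT, a rise of 0.59 (adjusted p = 0.000383, SE 0.08), and the groups did not overlap. Aldh18a1 was at 256, 260.1 and 249.7 CPM against 217, 193 and 206 CPM, with a log2 fold change of 0.31 (SE 0.09) and an adjusted p that rounds to 0.05. The call on Aldh18a1 was lost without any 1 of 8 libraries (all 6 2D libraries and replicate 3 of 3D WT and of the spheroids labelled 3D Cxcl5-/-), with an adjusted p up to 0.142, with library totals (adjusted p = 0.0589) and with no filter (adjusted p = 0.109). Gls2 was at 0.30 on the log2 scale (adjusted p = 0.319) and Glud1 at 0.17 (adjusted p = 0.246). The other 4 members lay between −0.01 and 0.24. In 2D Cxcl5-/- Gls2 was at 6.28, 6.34 and 5.98 CPM, Glud1 at 187, 176 and 188 CPM and Got1 at 80.1, 84.4 and 72.8 CPM. Got2 was at 146, 142 and 124 CPM and Pycr1 at 0.830, 1.53 and 2.90 CPM, the latter with the widest spread of the group for its size.

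In 3D the picture was different, and all 8 genes were called between the spheroids labelled 3D Cxcl5-/- and 3D WT. Glul was higher and the other 7 were lower, beside 19.7% of all genes called higher and 25.3% called lower. The comparison asks how the loss of Cxcl5 changes expression in spheroids.
Glul, which makes glutamine from glutamate and ammonia, was at 31.8, 31 and 31.2 CPM in 3D WT and 70.4, 77.1 and 63.5 CPM in the spheroids labelled 3D Cxcl5-/-. The groups did not overlap, and the log2 fold change was 1.17 (adjusted p = 2.98e-07, SE 0.09). Gls2, which runs the opposite reaction, was at 8.86, 6.42 and 7.18 CPM in 3D WT and 3.22, 3.81 and 3.24 CPM in the spheroids labelled 3D Cxcl5-/-, and fell by 1.13 (adjusted p = 4.57e-05, SE 0.15) on the log2 scale. In these spheroids the synthetase transcript thus stood higher and the Gls2 transcript lower.
Among the aminotransferases, Got1 showed the greatest difference. It was at 122, 93.1 and 106 CPM in 3D WT and 51.9, 43.0 and 48.8 CPM in the spheroids labelled 3D Cxcl5-/-, with a log2 fold change of −1.16 (adjusted p = 2.36e-06, SE 0.11). Gpt2, which forms alanine and 2-oxoglutarate from pyruvate and glutamate, was at 42.0, 41.0 and 41.8 CPM against 84.8, 69.2 and 75.3 CPM, a log2 fold change of −0.88 (adjusted p = 1.75e-06, SE 0.08). Got2, the partner of Got1 in the malate-aspartate shuttle, was at 91.7, 86.8 and 86.3 CPM against 138, 101 and 128 CPM. The change of Got2, −0.47 (adjusted p = 0.00294, SE 0.11), was smaller than that of Got1 in these fits, a difference between genes that was not itself tested.
The 2 proline genes were lower as well. Aldh18a1 was at 296, 234 and 261 CPM in 3D WT and 133, 131 and 136 CPM in the spheroids labelled 3D Cxcl5-/-, a log2 fold change of −0.99 (adjusted p = 1.3e-06, SE 0.09). Pycr1 was at 1.48, 1.20 and 1.71 CPM against 4.36, 4.55 and 2.90 CPM, a log2 fold change of −1.42 (adjusted p = 0.00531, SE 0.36), with the widest error of the 8 and the lowest levels.
Glud1, which releases ammonia from glutamate, was at 124, 125 and 122 CPM against 143, 138 and 149 CPM. Its log2 fold change of −0.21 (adjusted p = 0.0342, SE 0.08) turned to 0.18 (adjusted p = 0.128) when libraries were scaled by their totals, and that of Got2 then went to −0.08 (adjusted p = 0.54). The TMM factors were 0.82 to 0.912 in 3D WT and 1.01 to 1.22 in the spheroids labelled 3D Cxcl5-/-. Under library totals the median of all genes moved from −0.04 to 0.35 and the share of higher calls from 43.9% to 75.8%. The call on Glud1 was also lost with no filter (adjusted p = 0.329), in a fit on the groups compared alone (adjusted p = 0.171), and without replicate 1 or 3 of 2D Cxcl5-/-, replicate 2 or 3 of the spheroids labelled 3D Cxcl5-/-, or replicate 3 of 3D WT, with log2 fold changes of −0.15 to −0.22 and an adjusted p up to 0.154.

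The spheroids labelled 3D Cxcl5-/- also differed from 2D Cxcl5-/- cells, with 1 member higher and 6 lower beside 28.7% and 28.2% of all genes. Glul rose by 1.24 (adjusted p = 7.76e-08, SE 0.09), from 30.7, 30.5 and 27.9 CPM in 2D Cxcl5-/-. Aldh18a1 changed by −0.94, Gls2 by −0.86, Got1 by −0.72, Got2 by −0.64, Gpt2 by −0.58 and Glud1 by −0.57 on the log2 scale, all called lower. Pycr1 did not pass, at −0.26 (adjusted p = 0.561). These 2 comparisons share the spheroids labelled 3D Cxcl5-/-, so they are not independent of each other.
The genotype difference itself depended on the culture. The interaction, the Cxcl5-/- minus WT log2 fold change in 3D less that in 2D, was called for all 8 genes, with 1 higher and 7 lower beside 11.1% and 16.1% of all genes. It was 1.13 (adjusted p = 3.55e-05, SE 0.13) for Glul. For the proline genes it was −1.30 (adjusted p = 1.08e-05, SE 0.13) in Aldh18a1 and −1.66 (adjusted p = 0.0264, SE 0.50) in Pycr1. For Gpt2, whose genotype differences had opposite signs in 2D and 3D, it was −1.47 (adjusted p = 2.06e-06, SE 0.12). Got1 and Gls2 gave −1.15 and −1.43, and Got2 and Glud1 −0.54 and −0.39. Under library totals 5 of the 8 interaction calls were made, with those of Glud1 (adjusted p = 0.967), Got2 (0.403) and Pycr1 (0.0805) lost, and the share of higher calls over all genes went from 40.9% to 77.1%. With no filter those of Glud1 (adjusted p = 0.135) and Got2 (adjusted p = 0.0875) were lost. The call on Pycr1 was further lost without replicate 3 of 2D Cxcl5-/- (−1.07, adjusted p = 0.0733), replicate 2 of 2D WT, replicate 1 or 2 of 3D WT or replicate 2 of the spheroids labelled 3D Cxcl5-/-, and those on Glud1 and Got2 were lost without replicate 1 of 2D Cxcl5-/- (adjusted p = 0.0763 and 0.0795), that on Glud1 without its replicate 3 and that on Got2 without replicate 2 of the spheroids labelled 3D Cxcl5-/-.

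**Figure D3:**
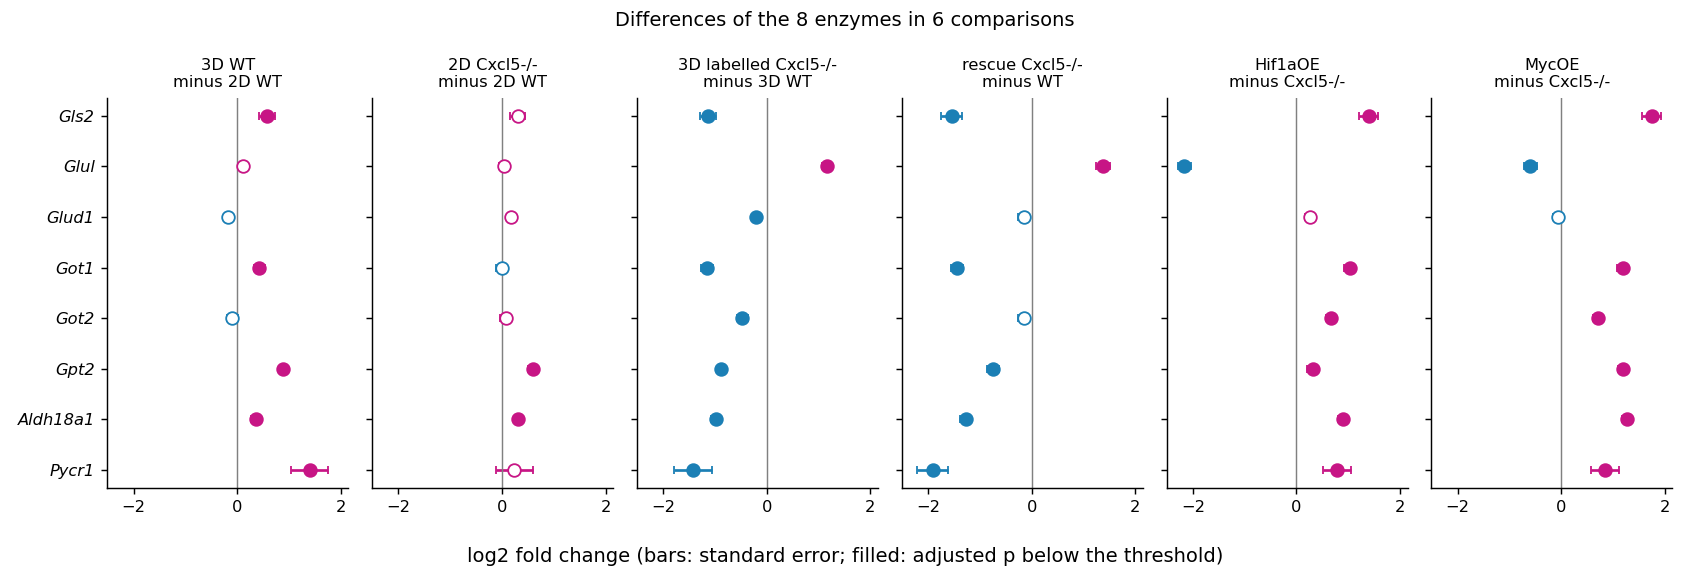
Log2 fold change of each of the 8 enzymes (horizontal axis) in the main comparisons, with bars for the SE and filled points for an adjusted p under 0.05. Glul lies on the opposite side from the other members in the spheroids labelled 3D Cxcl5-/- against 3D WT, at 1.17 against −1.42 to −0.21, and in rescue Cxcl5-/- against rescue WT.

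The rescue experiment gave a second set of Cxcl5-/- and WT spheroids, in a count table of its own, in which 1 gene was called higher and 5 lower, beside 17.6% and 24.3% of all 28730 genes tested. Glul was at 38.6 and 32.8 CPM in rescue WT and 91.9 and 93.9 CPM in rescue Cxcl5-/-, a rise of 1.38 (adjusted p = 2.19e-05, SE 0.14). Gls2 was at 6.05 and 6.52 CPM against 2.39 and 1.93 CPM, a log2 fold change of −1.54 (adjusted p = 0.000107, SE 0.20). The pair of opposed reactions thus again stood apart in opposite directions.
Got1 was at 97.6 and 94.4 CPM in rescue WT and 36.1 and 34.6 CPM in rescue Cxcl5-/-, a log2 fold change of −1.44 (adjusted p = 2.53e-06, SE 0.11). Gpt2 was at 42.8 and 47.2 CPM against 26.9 and 26.8 CPM, a change of −0.75 (adjusted p = 0.000293, SE 0.11). Of the proline genes, Aldh18a1 was at 197 and 207 CPM against 89.0 and 78.2 CPM, a change of −1.27 (adjusted p = 4.11e-06, SE 0.10). All these values were lower in both Cxcl5-/- libraries than in both WT libraries. Pycr1 was at 7.72 and 6.37 CPM against 1.85 and 1.91 CPM, a change of −1.91 (adjusted p = 0.00044, SE 0.30). Glud1, at −0.15 (adjusted p = 0.237), and Got2, at −0.15 (adjusted p = 0.24), were not called by edgeR. DESeq2 called both lower, at −0.25 (adjusted p = 0.0386) and −0.25 (adjusted p = 0.0309), as did edgeR fitted on the groups compared alone, at −0.18 (adjusted p = 0.016) and −0.18 (adjusted p = 0.0371). Glud1 was at 146 and 144 CPM in WT and 133 and 128 CPM in Cxcl5-/-, while Got2 was at 103 and 103 CPM in WT and 88.8 and 96.6 CPM in Cxcl5-/-. The median of all genes was −0.30 here, and that of the 8 members −1.01. The fit was repeated with only the 18384 genes that pass the filter in all 3 tables, of which 18374 passed it again. This choice was made after seeing how many more low-count genes the rescue WT libraries hold. The median of all genes was then −0.02, and the same 6 members were called.

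**Figure D4:**
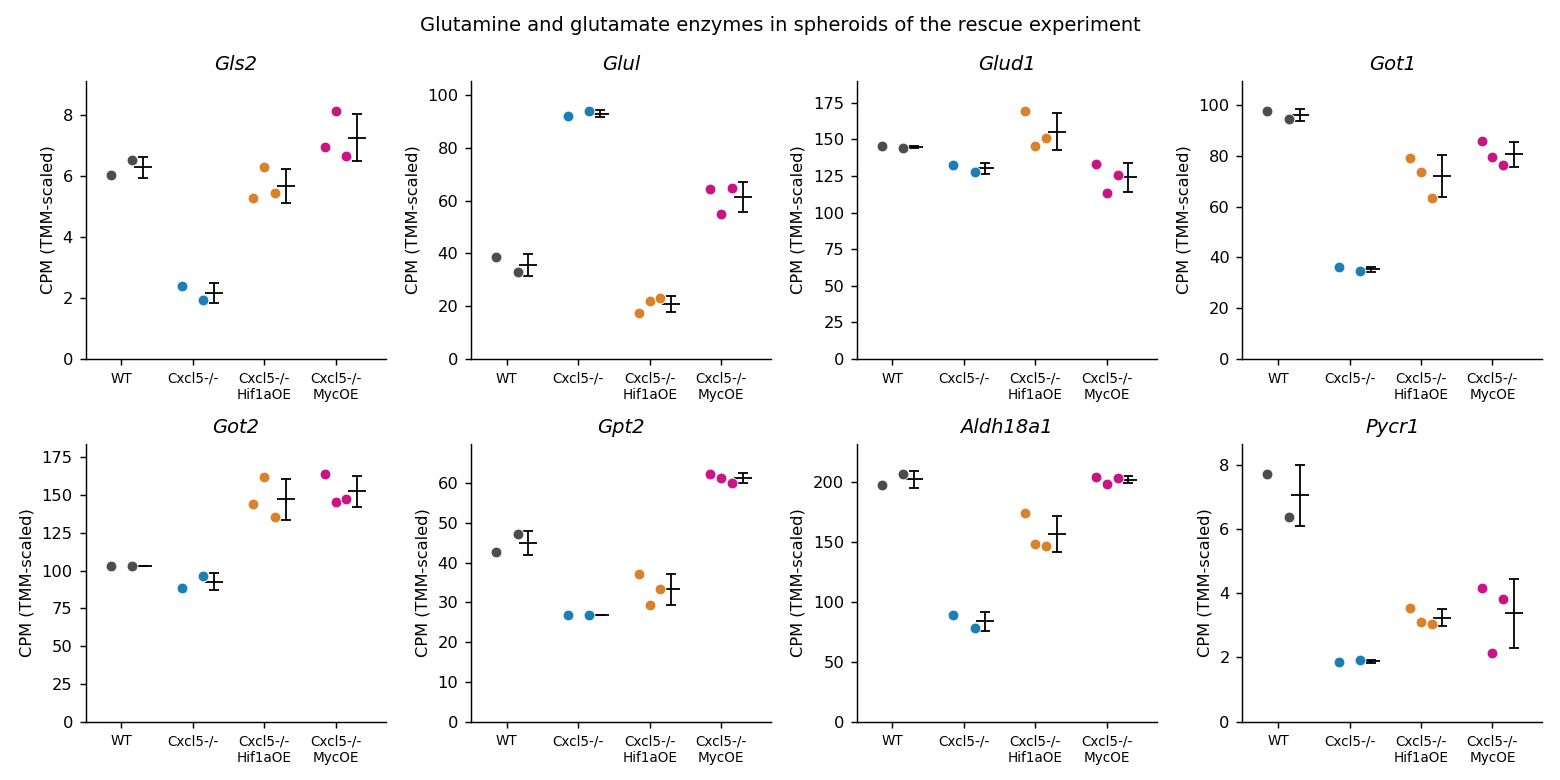
Level of each of the 8 enzymes in CPM (vertical axis) in the rescue experiment, with 1 point per library (n = 2 for WT and Cxcl5-/-, n = 3 for both overexpressing lines) and the mean ± SD. Glul is highest in Cxcl5-/-, at 91.9 to 93.9 CPM, and lowest in Hif1aOE Cxcl5-/-, at 17.3 to 23 CPM, while Gpt2 is highest in MycOE Cxcl5-/-, at 60.0 to 62.4 CPM.

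Overexpression of either factor in Cxcl5-/- spheroids was compared with Cxcl5-/- alone, and both comparisons use the same 2 Cxcl5-/- libraries, as does the one with WT. Against Cxcl5-/-, Hif1aOE Cxcl5-/- had 6 members higher and 1 lower, beside 20.5% and 15.0% of all genes. MycOE Cxcl5-/- had 6 higher and 1 lower, beside 21.6% and 18.0%. The lower gene was Glul in both, and the values for each member are given side by side.
Glul was at 17.3, 21.9 and 23 CPM in Hif1aOE Cxcl5-/-, a log2 fold change from Cxcl5-/- of −2.17 (adjusted p = 5.54e-07, SE 0.13). In MycOE Cxcl5-/- it was at 64.5, 54.7 and 64.8 CPM, a change of −0.60 (adjusted p = 0.00264, SE 0.13). The 3 Hif1aOE Cxcl5-/- libraries lay below both WT libraries (38.6 and 32.8 CPM), while the 3 MycOE Cxcl5-/- libraries lay between WT and Cxcl5-/-.
Gls2 was at 5.27, 6.31 and 5.44 CPM in Hif1aOE Cxcl5-/- and 6.96, 8.13 and 6.66 CPM in MycOE Cxcl5-/-. It rose by 1.39 (adjusted p = 0.00013, SE 0.19) and 1.75 (adjusted p = 2.07e-05, SE 0.19) from Cxcl5-/-. Both lines stood near WT, with log2 fold changes from WT of −0.15 (adjusted p = 0.567) and 0.21 (adjusted p = 0.387).
Got1 was at 79.2, 73.7 and 63.2 CPM in Hif1aOE Cxcl5-/- and 85.7, 79.6 and 76.2 CPM in MycOE Cxcl5-/-, up by 1.03 (adjusted p = 1.72e-05, SE 0.10) and 1.19 (adjusted p = 4.43e-06, SE 0.10). All of these libraries remained below the WT pair. Got2 was at 144, 162 and 136 CPM in Hif1aOE Cxcl5-/- and 164, 146 and 148 CPM in MycOE Cxcl5-/-, up by 0.67 (adjusted p = 0.000229, SE 0.10) and 0.72 (adjusted p = 0.000107, SE 0.10). Unlike Got1, the mitochondrial enzyme stood above WT in all 6 of these libraries.
Gpt2 differed between the lines. It was at 37.1, 29.3 and 33.4 CPM in Hif1aOE Cxcl5-/-, a change of 0.31 (adjusted p = 0.0325, SE 0.10), and at 62.4, 61.3 and 60.0 CPM in MycOE Cxcl5-/-, a change of 1.19 (adjusted p = 4.57e-06, SE 0.10). The Hif1aOE Cxcl5-/- libraries lay between Cxcl5-/- and WT, and the MycOE Cxcl5-/- libraries lay above WT.
Aldh18a1 was at 174, 149 and 147 CPM in Hif1aOE Cxcl5-/- and 204, 198 and 203 CPM in MycOE Cxcl5-/-, up by 0.90 (adjusted p = 2.75e-05, SE 0.10) and 1.27 (adjusted p = 2.04e-06, SE 0.10). The MycOE Cxcl5-/- values lay within the range of the WT pair. Pycr1 was at 3.55, 3.11 and 3.05 CPM and 4.15, 2.15 and 3.81 CPM, up by 0.78 (adjusted p = 0.0451, SE 0.27) and 0.84 (adjusted p = 0.0303, SE 0.28), and stayed below WT in all 6 libraries. Glud1 was at 169, 145 and 151 CPM in Hif1aOE Cxcl5-/- and 133, 113 and 125 CPM in MycOE Cxcl5-/- and was not called in either comparison, at 0.25 (adjusted p = 0.0547) and −0.07 (adjusted p = 0.583).
The calls on Gpt2 and Pycr1 in Hif1aOE Cxcl5-/- and on Pycr1 in MycOE Cxcl5-/- were the least firm. That on Gpt2 was lost without replicate 1 or 3 of Hif1aOE Cxcl5-/- or either Cxcl5-/- library (log2 fold changes 0.23 to 0.33, adjusted p up to 0.146), and with library totals it was 0.10 (adjusted p = 0.613). It was lost as well with DESeq2 (adjusted p = 0.0501), DESeq2 size factors (adjusted p = 0.0684), no filter (adjusted p = 0.0517) and the groups compared alone (adjusted p = 0.0844). That on Pycr1 in Hif1aOE Cxcl5-/- was lost without any 1 of 8 of the 10 libraries (adjusted p up to 0.183), and that in MycOE Cxcl5-/- without replicate 1 or 3 of MycOE Cxcl5-/- or either Cxcl5-/- library (adjusted p up to 0.138). Library totals and no filter also ended both Pycr1 calls (adjusted p = 0.15 and 0.0796 in Hif1aOE Cxcl5-/-, 0.174 and 0.0559 in MycOE Cxcl5-/-), as did DESeq2 size factors that in Hif1aOE Cxcl5-/- (adjusted p = 0.056). Glud1 was called lower in MycOE Cxcl5-/- with library totals, at −0.41 (adjusted p = 0.015). Under library totals the share of higher calls over all genes went from 57.8% to 43.6% for Hif1aOE Cxcl5-/- and from 54.6% to 36.3% for MycOE Cxcl5-/-. Leaving the rescue WT libraries out of the fit left the same 7 members called in each comparison.

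The overexpressing lines were also compared with each other, which uses no Cxcl5-/- or WT library. In MycOE Cxcl5-/- 3 members were higher and 1 lower than in Hif1aOE Cxcl5-/-, beside 9.54% and 9.73% of all genes. Glul was higher by 1.57 (adjusted p = 4.21e-06, SE 0.12), Gpt2 by 0.88 (adjusted p = 4.24e-05, SE 0.09) and Aldh18a1 by 0.37 (adjusted p = 0.0095, SE 0.08). Glud1 was lower, with a log2 fold change of −0.32 (adjusted p = 0.0179, SE 0.08). For Gls2, Got1, Got2 and Pycr1 the differences were 0.35 (SE 0.15), 0.16 (SE 0.09), 0.05 (SE 0.08) and 0.06 (SE 0.24) and did not pass. Glud1 lost its call without replicate 1 of Hif1aOE Cxcl5-/- or replicate 2 of MycOE Cxcl5-/- (adjusted p = 0.0751 and 0.082), and Aldh18a1 lost it under library totals (0.25, adjusted p = 0.122), where the share of higher calls over all genes went from 49.5% to 36.1%.
Against WT, Hif1aOE Cxcl5-/- had 1 member higher and 5 lower, beside 13.9% and 10.3% of all genes. Got2 was higher by 0.51 (adjusted p = 0.00319), and Glul, Got1, Gpt2, Aldh18a1 and Pycr1 were lower, at −0.79, −0.41, −0.43, −0.37 and −1.12. MycOE Cxcl5-/- had 3 members higher than WT and 1 lower, beside 17.1% and 14.7%. Glul was higher by 0.78 (adjusted p = 0.00109), Got2 by 0.56 (adjusted p = 0.00116) and Gpt2 by 0.45 (adjusted p = 0.00662), and Pycr1 was lower at −1.06 (adjusted p = 0.00978). The log2 fold change of Aldh18a1 rounded to 0.00 (SE 0.09). Gpt2 lost its call in MycOE Cxcl5-/- with library totals, at 0.15 (adjusted p = 0.394). Got1, at −0.25 (adjusted p = 0.0698), and Glud1, at −0.22 (adjusted p = 0.0893), were not called, but DESeq2 called both lower, at −0.38 (adjusted p = 0.00129) and −0.35 (adjusted p = 0.00155). So did edgeR with DESeq2 size factors (adjusted p = 0.0124 and 0.0171), with library totals (adjusted p = 0.00147 and 0.00709) and with the genes shared by the 3 tables (adjusted p = 0.0183 and 0.0231), and the fit on the groups compared alone called Got1 (adjusted p = 0.0282). These values rest on 2 WT libraries: without replicate 1 the members called fell to 3 for Hif1aOE Cxcl5-/-, where the calls on Got1, Aldh18a1 and Pycr1 were lost, and to 2 for MycOE Cxcl5-/-, where those on Gpt2 and Pycr1 were lost, and without replicate 2 the calls on Got1, Gpt2 and Aldh18a1 in Hif1aOE Cxcl5-/- were lost (adjusted p = 0.0663, 0.137 and 0.153). The share of higher calls over all genes went from 57.5% to 40.5% for Hif1aOE Cxcl5-/- and from 53.7% to 42.2% for MycOE Cxcl5-/- with DESeq2 size factors, and to 38.1% and 28.5% with library totals.

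The wider network of glutamine, glutamate and proline was followed in a list of 41 other genes, chosen with earlier results of these data known. Of the 37 tested between the spheroids labelled 3D Cxcl5-/- and 3D WT, 4 were called higher and 22 lower, beside 19.7% and 25.3% of all genes, and their median log2 fold change was −0.44 beside −0.04 for all genes. Of the 6 tested genes grouped with the aminotransferases, 1 was higher and 5 lower. Of 9 glutamine amidotransferases, which take the amide nitrogen of glutamine for nucleotides, hexosamines and NAD, 1 was higher and 6 lower. Carriers of glutamine, glutamate and aspartate gave 1 higher and 6 lower of 12. The genes of proline turnover, GABA, glutathione and the malate-aspartate shuttle gave 1 higher and 5 lower of 10.
The genes with the largest change were not the abundant ones. Prodh, which breaks proline down, averaged 8.76 CPM in 3D WT and 1.28 CPM in the spheroids labelled 3D Cxcl5-/-, a log2 fold change of −2.77 (adjusted p = 3.65e-08, SE 0.17). The same gene was called lower in 2D, with a Cxcl5-/- minus WT difference of −1.32 (adjusted p = 0.000128, SE 0.16). The proline synthesis genes Aldh18a1 and Pycr1 and the breakdown gene Prodh were thus lower in the spheroids labelled 3D Cxcl5-/-. Of the 4 listed genes of proline turnover tested there, 2 were called lower and 2 were not called, beside 25.3% of all genes called lower. In rescue Cxcl5-/- against WT, 1 of 4 was called higher and 0 lower, beside 17.6% and 24.3% of all genes. Prodh averaged 1.38 CPM in rescue Cxcl5-/- and 2.27 CPM in rescue WT and was not called. Gfpt2, an amidotransferase of hexosamine synthesis, averaged 0.645 CPM in 3D WT and had 0 counts in the spheroids labelled 3D Cxcl5-/-, which makes it at least 13.3-fold lower against a floor of 3 counts per library. Abat, which degrades GABA, and Slc25a18, a mitochondrial glutamate carrier, rose by 1.54 (adjusted p = 0.00703) and 1.63 (adjusted p = 0.0279) at levels under 2 CPM.
From 2D WT to 3D WT, 8 genes of the list were higher and 13 lower of 37, beside 22.2% and 22.0% of all genes. Slc38a1, a glutamine transporter, was called higher (adjusted p = 0.00272) with means of 0.0420 CPM in 2D WT and 0.629 CPM in 3D WT, Slc1a4, a transporter of neutral amino acids, rose by 1.55 (adjusted p = 1.51e-08), and Gfpt2, with 0 counts in 2D WT, was at least 13.6-fold higher. Ppat, the first amidotransferase of purine synthesis, fell with a log2 fold change of −1.47 (adjusted p = 2.72e-08). In 2D, Cxcl5-/- and WT differed in 3 genes higher and 3 lower, beside 3.86% and 3.17% of all genes. Among them were Asns, asparagine synthetase, at 0.55 (adjusted p = 0.00173), and Aldh5a1, which oxidises succinic semialdehyde, at −1.15 (adjusted p = 0.0286). Between the spheroids labelled 3D Cxcl5-/- and 2D Cxcl5-/- 3 were higher and 23 lower, beside 28.7% and 28.2% of all genes, with Asns at −1.86, Ppat at −1.73 and Ctps, CTP synthetase, at −1.71, and Slc38a1 at least 3.91-fold higher. The interaction was called for 2 higher and 17 lower, beside 11.1% and 16.1% of all genes, led by Asns at −1.93 (adjusted p = 6.63e-07), the cystine-glutamate antiporter gene Slc7a11 at −1.77 (adjusted p = 2.77e-06), Psat1, the phosphoserine aminotransferase that uses glutamate, at −1.50 (adjusted p = 1.18e-06), and Prodh at −1.45 (adjusted p = 0.00045). In the conditioned media 0 of 35 were called.

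**Figure D5:**
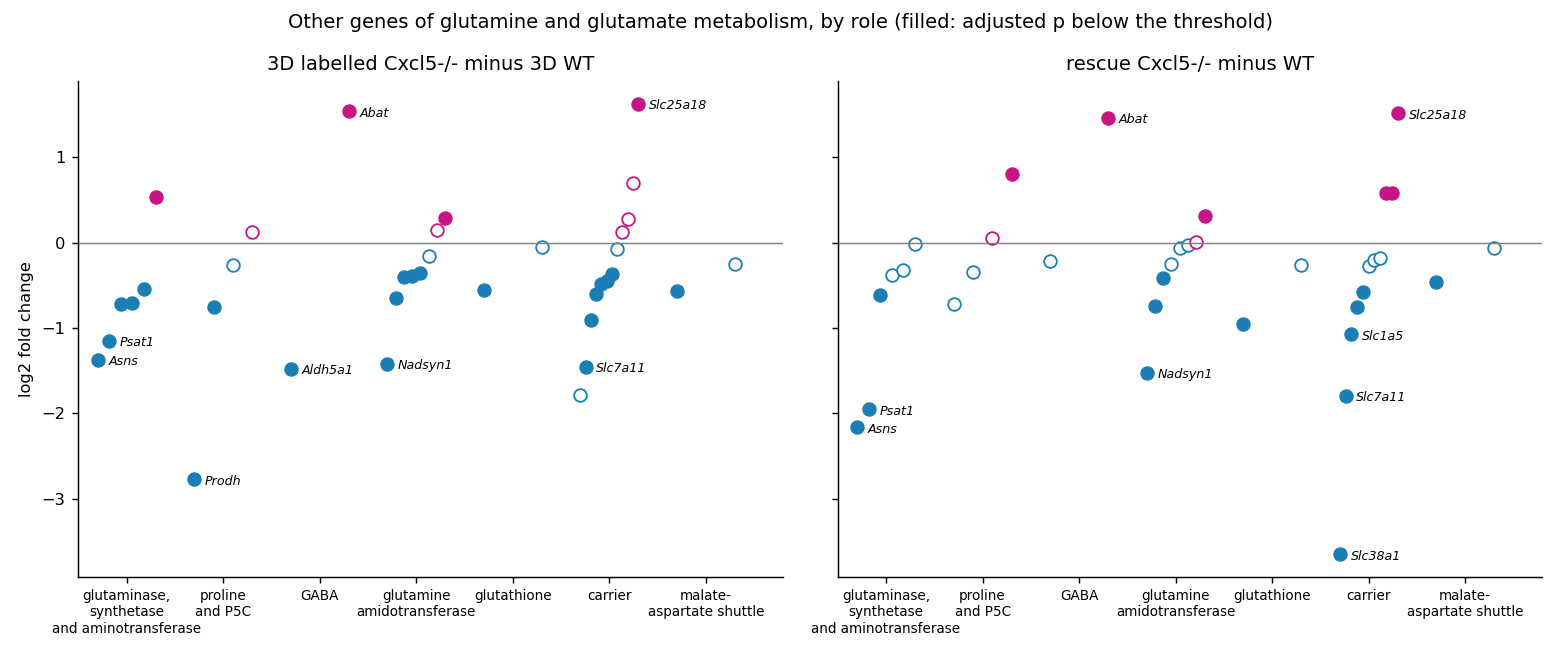
Log2 fold change (vertical axis) of the other genes of the network by role (horizontal axis, 1 point per gene), for the spheroids labelled 3D Cxcl5-/- against 3D WT (36 of 37 tested genes drawn) and rescue Cxcl5-/- against rescue WT (35 of 40 drawn), leaving out genes with a group at or under 3 counts. Filled points have an adjusted p under 0.05. Most filled points lie below 0 in both panels, and Prodh lies lowest in the first, at −2.77.

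In the rescue experiment, Cxcl5-/- against WT gave 6 higher and 18 lower of 40, beside 17.6% and 24.3% of all genes, with a median of −0.36 beside −0.30 for all genes (−0.02 for all genes in the fit on those tested in all 3 tables). The named genes of this comparison were all listed with 0 counts in Cxcl5-/-. Gfpt2, Slc1a1, a glutamate transporter, Bcat1, a branched-chain aminotransferase, and Gad1, which makes GABA, averaged 1.29, 1.27, 0.811 and 0.722 CPM in WT, at least 20.9-, 20.6-, 13.2- and 11.7-fold higher than the floor of 3 counts in Cxcl5-/-. These are low-count genes of the kind of which the rescue WT libraries held more.
MycOE Cxcl5-/- against Cxcl5-/- gave 22 higher and 2 lower of 40, beside 21.6% and 18.0% of all genes, with a median of 0.70 (0.58 with the genes of an empty group set at their bound) beside 0.11. Psat1 was at 149.7 and 133 CPM in Cxcl5-/- and 741, 702 and 714 CPM in MycOE Cxcl5-/-, a log2 fold change of 2.35 (adjusted p = 4.64e-08, SE 0.10). Asns was at 55.8 and 53.2 CPM against 233, 202 and 203 CPM, a change of 1.96 (adjusted p = 1.89e-07, SE 0.10). These are enzymes of serine and asparagine synthesis, both of which take nitrogen from glutamate or glutamine. Abat fell, with a log2 fold change of −2.17 (adjusted p = 0.00021), and Gad1 was at least 4.27-fold higher.
Hif1aOE Cxcl5-/- against Cxcl5-/- gave 21 higher and 4 lower of 40, beside 20.5% and 15.0% of all genes, with a median of 0.57 beside 0.16. Prodh was at 1.68 and 1.08 CPM in Cxcl5-/- and 8.27, 7.95 and 7.79 CPM in Hif1aOE Cxcl5-/-, a rise of 2.54 (adjusted p = 3.14e-05, SE 0.28), and stood above WT by 1.82 (adjusted p = 0.000735). Slc38a1 rose by 1.92 (adjusted p = 0.0048), and Slc1a1 and Bcat1 were at least 2.88- and 2.39-fold higher than in Cxcl5-/-, where both had 0 counts. Between the lines, 10 genes were higher in MycOE Cxcl5-/- and 2 lower, beside 9.54% and 9.73% of all genes. The amino acid transporter gene Slc7a5 was higher by 0.84 (adjusted p = 0.000757), Gpt, the cytosolic alanine aminotransferase, by 0.89 (adjusted p = 0.00472) and Aldh4a1, the dehydrogenase that returns P5C to glutamate, by 0.80 (adjusted p = 0.00422), while Nadsyn1, NAD synthetase, was lower at −1.13 (adjusted p = 0.000371). Against WT, 11 were higher and 7 lower in Hif1aOE Cxcl5-/-, beside 13.9% and 10.3% of all genes, with Slc1a1 at −2.82, Slc38a1 at −1.73 and Slc7a11 at −1.36. In MycOE Cxcl5-/- 19 were higher and 8 lower, beside 17.1% and 14.7%, with Slc38a1 at −2.72. Gfpt2, Slc1a1 and Bcat1 were among the lower ones there, with means of 0.0435, 0.0611 and 0.0717 CPM (0 to 8 counts per library).

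How the 8 genes varied together was described with Pearson's r over all 31 samples, on log2 CPM with the mean of each table subtracted, among the 18384 genes tested in all 3 tables. The points share libraries and group differences, so r describes a likeness and has no p. Got1 and Aldh18a1 ran closest together among the members (r = 0.935), followed by Gls2 with Aldh18a1 (r = 0.909) and Gls2 with Got1 (r = 0.869). Glul ran against every other member, from −0.68 with Glud1 to −0.12 with Gpt2. Outside the members, the genes most like Aldh18a1 were Asns (r = 0.958) and Psat1 (r = 0.930), and those most like Got1 were Ezr (r = 0.941) and Ube2t (r = 0.935). For Gls2 these were Gadd45b (r = 0.917) and Mt1 (r = 0.911), for Gpt2 Otub2 (r = 0.867), Slc3a2 (r = 0.862) and Cdk5rap1 (r = 0.851), and for Got2 Mogs (r = 0.931), Mrpl28 (r = 0.930) and Abhd11 (r = 0.925). Glud1 was most like Aftph (r = 0.912), Kbtbd2 (r = 0.864) and Chuk (r = 0.851), and Pycr1, the least abundant, reached only 0.781 with Pvr, 0.777 with Klf4 and 0.773 with Klf11. Glul was most like Gpm6b (r = 0.958), Gramd1b (r = 0.940) and Pdgfra (r = 0.916), and Pdgfra is 1 of the 5 fibroblast markers whose sums are given above.

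The positions of the genes, from GENCODE vM21 on GRCm38, are as follows. Gls2 is ENSMUSG00000044005, chr10:128194457-128210004, plus strand. Glul is ENSMUSG00000026473, chr1:153899944-153909723, plus strand. Glud1 is ENSMUSG00000021794, chr14:34310727-34345265, plus strand. All 3 are protein-coding genes, and counts cover their exons. Got1 is ENSMUSG00000025190, chr19:43499752-43524605, minus strand. Got2 is ENSMUSG00000031672, chr8:95864134-95888547, minus strand. Gpt2 is ENSMUSG00000031700, chr8:85492576-85527560, plus strand. Both aspartate aminotransferases are read from the minus strand. Aldh18a1 is ENSMUSG00000025007, chr19:40550257-40588463, minus strand. Pycr1 is ENSMUSG00000025140, chr11:120635712-120643769, minus strand. Exons of Gls2 overlap those of Spryd4, exons of Glul those of Teddm2, and exons of Got2 those of Gm45760, each on the opposite strand. Glul also overlaps the microRNA gene Mir8114 on its own strand, the pseudogene Gm15801 lies within Aldh18a1, and Got2 has a pseudogene, Got2-ps1, elsewhere. The libraries were stranded, but the strand setting of the counting is not given in the sources used here, so these counts may hold reads of the overlapping genes.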

How the data were processed

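Gene expression was measured by RNA sequencing in 31 samples of Panc02 cells. The authors prepared stranded total RNA libraries, sequenced read pairs, aligned them to GRCm38 with HISAT2 and deposited StringTie gene counts, not normalized, in 3 tables. The annotation release and strand setting are not given in the sources used here. Samples were grouped by their labels, and 0 columns were left unmapped. From the counts, each table was filtered (edgeR's filterByExpr by group), scaled (TMM) and tested with edgeR 4.0.16 (quasi-likelihood, R 4.3.3), all groups in 1 fit, with Benjamini-Hochberg adjustment over all genes tested. A call is an adjusted p under 0.05, and the SE is the log2 fold change divided by the square root of F. Statements that groups did not overlap describe the libraries only, since the share of all genes without overlap was not computed. DESeq2 1.42.0 was an alternative, as in the authors' own tests. Further alternatives were size factors or totals, no filter, fewer groups, a fold limit, summed symbols, a replicate block and each library left out. Leaving out rescue WT or the libraries labelled 3D Cxcl5-/-, and testing only genes shared by all 3 tables, were chosen after seeing the data. A group with at most 3 counts in every library was taken as at the floor. The steps were tested on simulated data. Total counts of 41542533 to 78498230 per sample set the counting precision.

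The members and lists were chosen with earlier results of these data known. Named were all 8 members, Cxcl5, Hif1a and Myc, per comparison up to 4 genes of the network list with the largest log2 fold change among those called without overlap, and per member the 3 genes with the highest r. Single results for a few genes of the list are not reported here. Promoters are from RefSeq (GRCm38.p6). Python 3.11.15 and matplotlib 3.10.9 drew the figures.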

Additional observations from a re-analysis of the deposited data

Results flagged for a closer look

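For every one of the 8 enzymes, the genotype difference in 3D was not the one in 2D by the interaction test of edgeR, beside 27.2% of all genes called. With library totals the calls on Glud1, Got2 and Pycr1 were lost (adjusted p = 0.967, 0.403 and 0.0805). Each of these calls was also lost without certain single libraries. The difference in 3D less that in 2D, on the log2 scale, was −1.43 (adjusted p = 0.000301) for Gls2, 1.13 (adjusted p = 3.55e-05) for Glul, −0.39 (adjusted p = 0.0173) for Glud1 and −1.15 (adjusted p = 0.000151) for Got1. It was −0.54 (adjusted p = 0.0179) for Got2, −1.47 (adjusted p = 2.06e-06) for Gpt2, −1.30 (adjusted p = 1.08e-05) for Aldh18a1 and −1.66 (adjusted p = 0.0264) for Pycr1. Among the named genes of the network it was −1.93 (adjusted p = 6.63e-07) for Asns, −1.77 (adjusted p = 2.77e-06) for Slc7a11, −1.50 (adjusted p = 1.18e-06) for Psat1 and −1.45 (adjusted p = 0.00045) for Prodh. Of the genes that check the labels, it was 1.37 (adjusted p = 0.000267) for Cxcl5, −1.27 (adjusted p = 2.43e-05) for Hif1a and −1.41 (adjusted p = 4.45e-05) for Myc. All of these values rest on the libraries labelled 3D Cxcl5-/-, in which the Cxcl5 transcript stood above 3D WT.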

How the results depend on the processing

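Over all alternatives, 2040 log2 fold changes of the 8 enzymes were recomputed. Of those that did not leave out a single library, 821 kept the call or its absence, 25 lost the call, 17 gained one and 1 reversed, Glud1 in the libraries labelled 3D Cxcl5-/- against 3D WT with library totals (0.18). Of those that left out 1 library, 1123 kept it, 48 lost the call and 5 gained one. Of the values that kept it, 51 changed sign without being called in either fit. The cause was not tested.

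A limit on the absolute log2 fold change above 1 lowered the counts by its construction. For the 8 enzymes it left 4 between the libraries labelled 3D Cxcl5-/- and 3D WT, 1 against 2D Cxcl5-/-, 1 for 3D WT against 2D WT, 0 for Cxcl5-/- in 2D, 3 and 4 for Hif1aOE and MycOE against Cxcl5-/-, 1 between these lines, and 1 and 1 against WT. Over all genes it left 3771, 6082, 3877, 666, 5185, 6366, 1978, 2769 and 4439 in the same order, 7327 for rescue Cxcl5-/- against WT and 2438 for the interaction. For Cxcl5-/- in 2D, 1 enzyme was called with library totals and 1 with no filter, and 5 were called for the interaction with library totals. In the conditioned media, DESeq2 called 97 genes for M1-CM against Ctrl, 32 against M0-CM and 17 for M0-CM against Ctrl, where library totals called 1 and a fit on the groups compared 2. Leaving out 1 library at a time gave 1 to 5, 1 to 6 and 0 to 2 genes in these comparisons, 7487 to 13620 for rescue Cxcl5-/- against WT, 3177 to 7436 for Hif1aOE and 4926 to 9845 for MycOE against WT. The enzymes called ranged from 1 to 2 for Cxcl5-/- in 2D, from 3 to 6 for Hif1aOE and from 2 to 5 for MycOE against WT.

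Whether replicate numbers pair the samples was not settled. Deviations of same-numbered samples correlated at a mean of 0.0369, 0.0247 and 0.00408 in the 3 tables, beside −0.0186, −0.0123 and −0.0022 for differently numbered samples. Single same-number values ran from −0.236 to 0.359. With so few libraries per group these means cannot show that pairing is absent. With the replicate number as a block, 1 gene was called for M1-CM against Ctrl and 1 against M0-CM, Glud1 was called in Hif1aOE against Cxcl5-/- (0.26, adjusted p = 0.0444), and no other call on the 8 enzymes changed.

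The limits are the 2 libraries each of rescue WT and Cxcl5-/-, the low counts of Pycr1 and Gls2, and the unequal composition of the 3D libraries.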
